A study of Mus musculus with 8 samples.

Results

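Glycolysis and the hypoxia-inducible factor 1 (HIF-1) program were examined in mouse alveolar macrophages that lack BATF2, an AP-1 family transcription factor. The gene set was chosen by name and held 30 of the 48709 genes in the deposited count table. It was divided into 20 glycolytic genes (transporters, enzymes and the regulators Pfkfb3 and Pfkfb4) and 10 HIF-1 genes (the subunit gene Hif1a, the oxygen sensors Egln1 and Egln3, and 7 targets). All 30 passed the filter on low counts, so no member was lost from the test.

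Messenger RNA was sequenced from primary alveolar macrophages of Batf2-/- and WT (C57BL/6J) mice, in 4 libraries per genotype. Each library came from a pool of cells from 4 mice. Cells of both genotypes were kept in culture and given interferon gamma at 10 ng/mL for 4 h, then 20% Klebsiella pneumoniae culture supernatant for 6 h to drive an inflammatory state. Stimulated cells alone were compared, so every level below is a level after stimulation.

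Glycolysis splits glucose into pyruvate in the cytosol, and lactate dehydrogenase turns pyruvate into lactate so that the pathway can keep running. Macrophages exposed to interferon gamma and bacterial products shift towards this pathway. HIF-1 is a dimer whose alpha subunit is hydroxylated by the EGLN enzymes when oxygen is present and is then degraded. When the subunit is stable, HIF-1 binds hypoxia response elements and raises the transcription of glycolytic genes, and of Egln1 and Egln3 in a feedback loop.

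Total counts per library ranged from 31730041 to 39888022. No Batf2 reads were counted in any Batf2-/- library (0 counts in all 4), and Batf2 averaged 168 ± 21.9 CPM in WT (SD, n = 4). The count columns carried a genotype heading but no replicate number, so libraries are numbered by table column, 5 to 8 for Batf2-/- and 1 to 4 for WT. On the first principal component, which held 42.5% of the variance, libraries 8 (Batf2-/-, 28.9) and 4 (WT, 43.9) stood apart at one end and library 5 (Batf2-/-, -34.9) at the other, with the remaining 5 between -16.7 and 4.72. Macrophage genes dominated: the summed level of 14 alveolar macrophage markers was 8364 to 13147 CPM in Batf2-/- and 6092 to 7564 CPM in WT, and that of 5 pan-macrophage markers was 9679 to 17393 CPM in Batf2-/- and 8001 to 14692 CPM in WT. Summed markers of lung epithelium (10.3 to 18.7 CPM in Batf2-/-, 12.4 to 18.3 CPM in WT) and of endothelium and stroma (1.01 to 4.16 CPM in Batf2-/-, 0.526 to 0.832 CPM in WT) were low.

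Hif1a, which encodes the oxygen-regulated alpha subunit of HIF-1, was the member whose genotypes stood furthest apart relative to their spread. Hif1a (ENSMUSG00000021109; GRCm38 chromosome 12, 73901375 to 73947530, plus strand) stood at 462, 412, 405 and 382 CPM in Batf2-/- libraries 5 to 8, against 693, 620, 604 and 561 CPM in WT libraries 1 to 4. Every Batf2-/- library lay below every WT library, and within each genotype the level varied by a factor of 1.21 in Batf2-/- and 1.24 in WT. The means were 415 ± 33.7 CPM in Batf2-/- and 620 ± 55.0 CPM in WT (SD, n = 4 each), a level 1.49-fold lower in Batf2-/- with a log2 fold change of -0.58 (SE 0.11, 95% interval -0.83 to -0.32).

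By edgeR's quasi-likelihood test Hif1a had an unadjusted p of 5.76e-04 and an adjusted p of 0.0503, just above the threshold of 0.05. The position of this value relative to the threshold rested on the fit. DESeq2 gave an adjusted p of 1.17e-05 and limma-voom with library quality weights gave 0.00372, while leaving out single libraries in edgeR gave 0.0484 (without library 4) to 0.201 (without library 7). Without both libraries 8 and 4 the adjusted p in edgeR was 0.0275, and without library 5 it was 0.0755. In bulk samples, less Hif1a RNA per cell and fewer cells that express it cannot be told apart. The higher sum of alveolar macrophage markers in Batf2-/- was carried by Chil3 (4242 to 8823 CPM in Batf2-/-, 2488 to 3968 CPM in WT), and without it the sums of the other 13 markers overlapped (3911 to 4324 CPM in Batf2-/-, 3597 to 4005 CPM in WT). Among those 13, only Car4 passed, higher in Batf2-/- (adjusted p = 0.00501 by edgeR). Pparg was lower without overlap, at 6.98 to 9.05 CPM in Batf2-/- and 9.54 to 10.8 CPM in WT (edgeR adjusted p = 0.409). Krt79 was higher without overlap, at 0.525 to 0.797 CPM in Batf2-/- and 0.361 to 0.495 CPM in WT (edgeR adjusted p = 0.602). The rest of the 13 overlapped. Summed levels of 7 dendritic cell markers were 4.28 to 5.68 CPM in Batf2-/- and 5.82 to 7.63 CPM in WT, without overlap. The lower sum in Batf2-/- was carried by Clec9a, which fell (0.200 to 0.359 CPM in Batf2-/-, 2.31 to 2.61 CPM in WT, edgeR adjusted p = 1.20e-04). Zbtb46 went the other way, at 1.68 to 2.42 CPM in Batf2-/- and 0.638 to 1.18 CPM in WT, and Cd209a and Siglech were at 0 in all 8 libraries. The share of counts on mitochondrially encoded genes was 0.875% to 1.29% in Batf2-/- and 0.929% to 1.52% in WT. The part of these markers and of this share in the Hif1a difference was not tested. An annotated antisense gene, Gm15283, shares 330 bases of exon with Hif1a but had 6 counts in all 8 libraries together, against 151608 for Hif1a.

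Separation of the genotypes was about as frequent among the members as among all genes. Of the 30 members, 1 had all Batf2-/- libraries below all WT libraries (Hif1a) and 1 had all of them above (Vegfa). Among 11083 tested genes the shares were 3.29% below and 3.03% above. Hif1a was also the only member whose fold between genotypes exceeded the ratio of highest to lowest library in both genotypes, as did 3.45% of all tested genes.

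**Figure D1:**
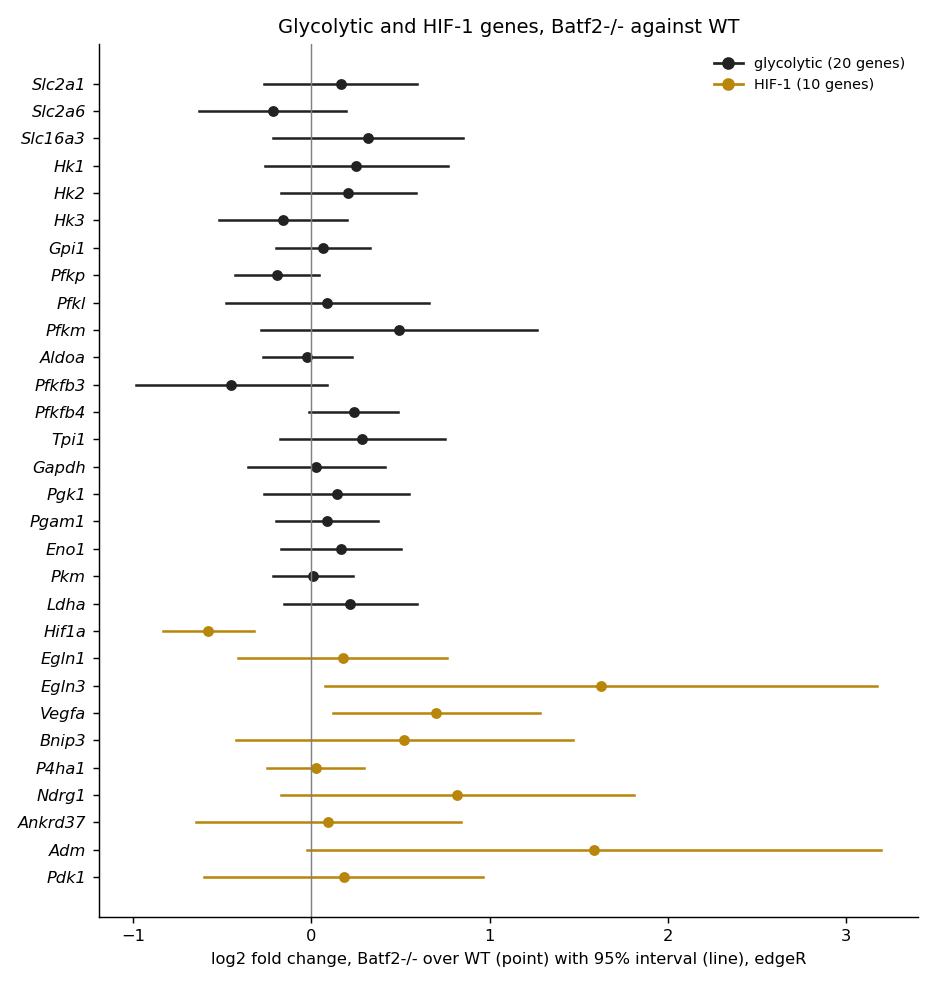
Log2 fold change of each of the 30 genes, Batf2-/- over WT (horizontal axis, points), with the 95% interval from edgeR (lines), by gene (vertical axis), with glycolytic genes in black and HIF-1 genes in gold. Hif1a lies at -0.58 with an interval wholly below 0, the 20 glycolytic genes lie between -0.45 and 0.49 with intervals that include 0, and the widest intervals belong to Egln3 and Adm.

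The promoter window of Hif1a and those of 3 HIF-1 targets described below are shown because they differ in how many core hypoxia response elements they hold. The windows are RefSeq promoters of GRCm38.p6, 250 bases before to 50 bases after the start site, read 5′ to 3′ on the gene's strand. Capitals mark the core element, searched as ACGTG or GCGTG on both strands (so also as CACGT or CACGC), and a run of CACGTG holds 2 overlapping matches. The windows lie at chr12:73907617-73907916 (plus strand) for Hif1a, chr7:138909457-138909756 (minus strand) for Bnip3, chr7:46845554-46845853 (plus strand) for Ldha and chr2:71872974-71873273 (plus strand) for Pdk1.
Hif1a: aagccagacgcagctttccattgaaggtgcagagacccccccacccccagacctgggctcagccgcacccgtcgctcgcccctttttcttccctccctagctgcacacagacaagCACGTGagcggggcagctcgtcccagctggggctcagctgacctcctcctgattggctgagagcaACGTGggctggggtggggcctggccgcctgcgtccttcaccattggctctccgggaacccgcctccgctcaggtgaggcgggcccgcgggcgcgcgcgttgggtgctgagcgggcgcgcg
Bnip3: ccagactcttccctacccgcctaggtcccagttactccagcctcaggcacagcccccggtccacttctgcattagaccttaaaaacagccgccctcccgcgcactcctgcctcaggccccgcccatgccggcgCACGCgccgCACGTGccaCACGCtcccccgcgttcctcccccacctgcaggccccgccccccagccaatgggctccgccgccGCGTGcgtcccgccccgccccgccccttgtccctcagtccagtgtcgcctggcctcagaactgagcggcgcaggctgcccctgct
Ldha: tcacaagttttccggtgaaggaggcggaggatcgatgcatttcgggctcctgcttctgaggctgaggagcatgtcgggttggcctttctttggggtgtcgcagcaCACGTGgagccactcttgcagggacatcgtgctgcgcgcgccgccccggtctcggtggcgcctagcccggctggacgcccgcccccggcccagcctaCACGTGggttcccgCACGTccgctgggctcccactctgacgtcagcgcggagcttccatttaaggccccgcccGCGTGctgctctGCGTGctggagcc
Pdk1: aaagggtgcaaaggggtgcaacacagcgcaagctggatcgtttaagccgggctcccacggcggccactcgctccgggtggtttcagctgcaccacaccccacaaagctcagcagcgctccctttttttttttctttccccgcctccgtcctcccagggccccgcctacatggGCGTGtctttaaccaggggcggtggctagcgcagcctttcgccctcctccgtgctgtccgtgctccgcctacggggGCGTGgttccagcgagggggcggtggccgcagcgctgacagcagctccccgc

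The Hif1a window held 3 matches, that of Bnip3 5, that of Ldha 7 and that of Pdk1 2. Ldha and Pdk1 each have another annotated window, with 2 and 0 matches. Of the 30 genes, 29 had at least 1 RefSeq window (Ndrg1 is named only), and 34 of their 42 windows (81.0%) held the core element, against 43.8% of all 32851 windows. The members were listed as glycolytic and HIF-1 genes, so a high share is built into the list and is no evidence about Batf2. By gene, 18 of 20 glycolytic genes and 9 of 9 HIF-1 genes had a window with a match, with no share by gene computed for the rest. The AP-1 motif TGANTCA, where N is any base, was found in 1 of the 42 windows, one of Aldoa's 3, against 7.81% of all windows. A match describes letters in a window and not binding, and windows of the same gene can overlap.

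Across the 30 genes, 0 passed an adjusted p under 0.05 in edgeR in either direction, against 1.11% of all tested genes. At an unadjusted p under 0.05 there were 3 (10.0%), against 8.5% of all tested genes, so the members' share lay near that of the rest. A block on table position, a pairing that the labels do not give, would put 8 members past the threshold, 6 of them glycolytic. The same block put 1390 of all 11083 tested genes past it. DESeq2 called 1 member, Hif1a, against 2.08% of all genes it tested. The 3 members with an unadjusted p under 0.05 were all HIF-1 genes: Hif1a, lower in Batf2-/-, and Vegfa and Egln3, higher. The log2 fold change was above 0 for 24 members and below 0 for 6, with a median of 0.17. Among all 11083 tested genes it was above 0 for 5102, with a median of -0.01. Without library 5 the log2 fold change was above 0 for 17 members (median 0.07), and without library 1 for 20 (median 0.11).

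The glycolytic genes showed small differences between genotypes. None of the 20 passed by edgeR without a block, at either the adjusted or the unadjusted level. With the block on table position, which called 1390 of 11083 tested genes, Hk2 and Pfkfb4 were higher and Slc2a6, Hk3, Pfkp and Pfkfb3 lower in Batf2-/-. Their log2 fold changes ran from -0.45 (Pfkfb3) to 0.49 (Pfkm), with a median of 0.12. For 19 of the 20 the 95% interval of the fold lay within a 2-fold change in either direction, and for 10 of them within a 1.5-fold change. The exception at 2-fold was Pfkm, the muscle isozyme of phosphofructokinase, which had 142 counts in all 8 libraries together.

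Glycolytic mRNA was abundant in both genotypes. Summed over the 20 genes it made up 1.27%, 1.22%, 1.04% and 1.12% of the TMM-scaled library in Batf2-/- libraries 5 to 8, and 1.10%, 1.21%, 1.06% and 1.13% in WT libraries 1 to 4. The groups overlapped, with means of 1.16% ± 0.102 in Batf2-/- and 1.13% ± 0.0631 in WT (SD, n = 4 each). Levels can be compared between genes only per length, as CPM per kilobase of exon. On that scale, over all 8 libraries, Pgam1 (662), Aldoa (532) and Pkm (496) led, and Vegfa (0.127), Pfkm (0.144) and Adm (0.405) were lowest. This order holds for merged exon length and can change with another length. Merged exons held 5001 bases for Pkm, against 2432 in its longest transcript. The lengths were 2911 against 1549 for Aldoa and 1982 against 1775 for Pgam1. Divided by the longest transcript, Pkm and Aldoa would lie above Pgam1.

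**Figure D2:**
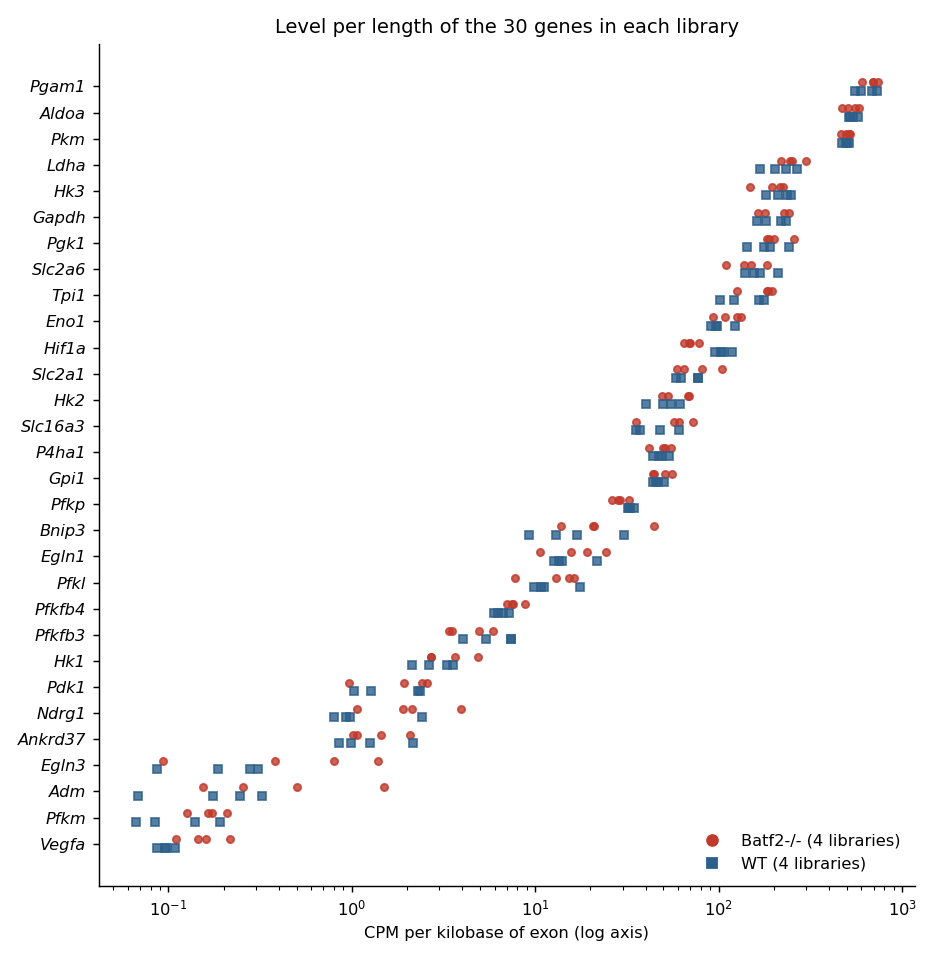
Level per length of the 30 genes (vertical axis, ordered by the mean over 8 libraries) as CPM per kilobase of exon on a log axis, with 4 Batf2-/- libraries (red circles) above 4 WT libraries (blue squares) for each gene. The genotypes overlap for every gene but Hif1a and Vegfa, and levels span from 662 for Pgam1 to 0.127 for Vegfa.

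Uptake and export of sugar and lactate gave no call. Slc2a1 (GLUT1), a glucose transporter of the plasma membrane and a known HIF-1 target, stood at 366, 284, 227 and 208 CPM in Batf2-/- libraries 5 to 8, against 271, 272, 219 and 205 CPM in WT libraries 1 to 4. Library 5 was the highest of all and the genotypes otherwise overlapped (log2 fold change 0.17, SE 0.19). Slc2a6, a member of the same family known to be induced in inflammatory macrophages and placed at lysosomes, stood at 592, 483, 440 and 351 CPM in Batf2-/-, against 675, 543, 500 and 449.5 CPM in WT (log2 fold change -0.22, SE 0.18). Slc16a3, which exports lactate, averaged 300.3 ± 82.2 CPM in Batf2-/- and 241 ± 61.1 CPM in WT (SD, n = 4 each; edgeR adjusted p = 0.978).

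Hexokinases trap glucose by phosphorylation, and Hk3 was the leading isozyme here. Hk3 stood at 797, 823, 721 and 549 CPM in Batf2-/- libraries 5 to 8, against 913.5, 870, 772.5 and 667 CPM in WT libraries 1 to 4. Hk2, the inducible form and a HIF-1 target, stood at 406, 411.5, 316 and 293.5 CPM in Batf2-/-, against 329, 369, 298 and 240 CPM in WT. Each gene overlapped between genotypes, with opposite signs of the log2 fold change, -0.16 (SE 0.16) for Hk3 and 0.21 (SE 0.17) for Hk2. Hk1, the form common to most tissues, was low at 29.7 ± 8.75 CPM in Batf2-/- and 24.9 ± 5.64 CPM in WT (SD, n = 4 each).

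As a share of hexokinase level per length, the isozymes did separate by genotype. Hk2 made up 23.5%, 23.3%, 21.1% and 24.5% in Batf2-/- libraries 5 to 8, against 18.0%, 20.5%, 19.0% and 18.0% in WT libraries 1 to 4. All Batf2-/- libraries lay above all WT libraries, with means of 23.1% ± 1.43 in Batf2-/- and 18.9% ± 1.20 in WT (SD, n = 4 each). Hk3 made up the larger part in both, 75.6% ± 1.60 in Batf2-/- and 80.1% ± 1.28 in WT, without overlap.

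The same kind of separation was seen in 2 other families, picked after their values were seen. Pfkfb3 and Pfkfb4 encode bifunctional enzymes that set the level of fructose-2,6-bisphosphate, an activator of phosphofructokinase. Pfkfb3 stood at 44.3, 37.5, 26.7 and 25.5 CPM in Batf2-/- libraries 5 to 8, against 55.6, 55.9, 40.7 and 30.7 CPM in WT libraries 1 to 4. Pfkfb4 stood at 42.9, 36.8, 36.3 and 34.3 CPM in Batf2-/-, against 32.6, 35.2, 30.6 and 29.0 CPM in WT. Neither passed by edgeR (adjusted p = 0.750 for Pfkfb3 and 0.630 for Pfkfb4), and both overlapped between genotypes. As a share of the level per length of the 2 genes, Pfkfb4 made up 64.0% ± 4.37 in Batf2-/- and 52.6% ± 5.26 in WT (SD, n = 4 each), from 60.0% to 67.9% in Batf2-/- and from 47.6% to 59.4% in WT. Likewise, Slc2a1 made up 34.6% ± 1.75 of the summed level per length of Slc2a1 and Slc2a6 in Batf2-/- and 29.1% ± 1.90 in WT, from 32.1% to 36.1% in Batf2-/- and from 26.9% to 31.4% in WT.

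In all, 9 ratios of gene pairs were computed within 5 families (hexokinases, phosphofructokinases, Pfkfb, glucose transporters and Egln). Of these, 3 did not overlap between genotypes: Hk2 over Hk3, Pfkfb3 over Pfkfb4, and Slc2a1 over Slc2a6. The Pfkfb and glucose transporter families were picked after their values were seen, which can raise this count. Among all 61410903 pairs of tested genes, the ratio did not overlap in 7.86%. The 9 ratios share genes and libraries, and the pairs of all genes include low genes with larger counting error, so the shares are given as a description without a test.

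**Figure D3:**
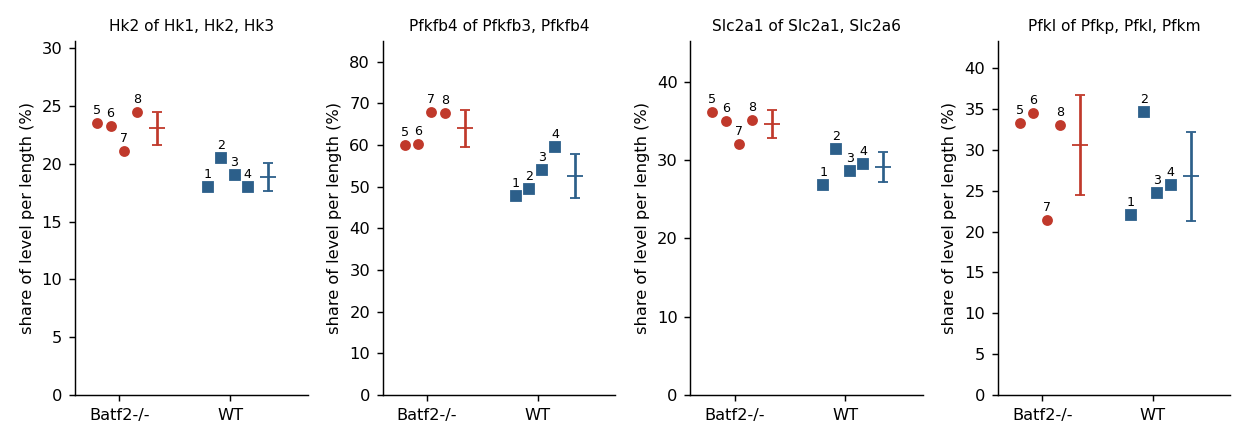
Share of level per length (vertical axis, %) of Hk2 among the hexokinases, Pfkfb4 among Pfkfb3 and Pfkfb4, Slc2a1 among Slc2a1 and Slc2a6, and Pfkl among the phosphofructokinases, for Batf2-/- (left) and WT (right), with a point per library (numbered) and the mean and SD beside them. Batf2-/- libraries lie above WT libraries in all panels but that of Pfkl.

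The other upper steps gave no call. Gpi1, which isomerizes glucose-6-phosphate, averaged 315 ± 36.6 CPM in Batf2-/- and 301 ± 18.5 CPM in WT (SD, n = 4 each). Pfkp, the leading phosphofructokinase isozyme and the committed step of the pathway, stood at 433, 386, 380 and 351 CPM in Batf2-/- libraries 5 to 8, against 465, 439, 436 and 429 CPM in WT libraries 1 to 4. Only library 5 reached the WT range (log2 fold change -0.19, SE 0.10; edgeR adjusted p = 0.778). Pitrm1, on the opposite strand, shares 748 bases of exon with Pfkp and had 8665 counts in all 8 libraries, against 121528 for Pfkp. Pfkl, the liver isozyme, varied more between pools than between genotypes, at 108, 102, 51.9 and 86.7 CPM in Batf2-/- and 65.4, 117, 71.4 and 74.3 CPM in WT. Aldoa, the aldolase of most tissues, stood at 1688, 1608, 1472 and 1375 CPM in Batf2-/- and 1498, 1667, 1563 and 1508 CPM in WT (log2 fold change -0.02, SE 0.11), with the WT libraries inside the Batf2-/- range.

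The lower steps, from triose phosphates to lactate, all had log2 fold changes above 0, against 5102 of 11083 tested genes, and none passed. The sign turned for Pkm with no filter, and for Gapdh or Pkm without library 4, 5 or 6. With all libraries and the filter, the log2 fold changes ran from 0.01 for Pkm to 0.29 for Tpi1, with a median of 0.14. Pkm, which makes pyruvate, varied little, at 2594, 2567, 2334 and 2461 CPM in Batf2-/- libraries 5 to 8, against 2506, 2482, 2343 and 2558 CPM in WT libraries 1 to 4. Its log2 fold change was 0.01, with a 95% interval of -0.21 to 0.23. Ldha, lactate dehydrogenase A and a HIF-1 target, stood at 826, 809, 723 and 994 CPM in Batf2-/-, against 553, 774, 668 and 887 CPM in WT (log2 fold change 0.22, SE 0.17). The genotypes overlapped, and the highest library of each genotype was library 8 and library 4. Pgam1, phosphoglycerate mutase and the member of highest level per length of merged exon, stood at 1380, 1369, 1192 and 1460 CPM in Batf2-/-, against 1097, 1353, 1184 and 1454 CPM in WT.

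Gapdh, often used as a reference transcript, was uneven between pools, at 997, 939, 735 and 673 CPM in Batf2-/- libraries 5 to 8 and 958, 903, 748 and 669 CPM in WT libraries 1 to 4. Its log2 fold change between genotypes was 0.03 (SE 0.17). Pgk1 (phosphoglycerate kinase), Pgam1, Eno1 (enolase) and Tpi1 (triosephosphate isomerase) had log2 fold changes of 0.14, 0.09, 0.17 and 0.29. Glycolytic genes have many retrocopies in the mouse genome, and how reads matching several copies were counted is not given in the sources used here. Of the copies named after members in the table, 7 pseudogenes had 0 counts in all libraries, Eno1b had 133 and Pgk1-rs7 had 547, against 170812 counts for Eno1 and 127723 for Pgk1.

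All 7 HIF-1 targets had log2 fold changes above 0, the opposite sign to Hif1a, against 5102 of 11083 tested genes. The 7 ran from 0.02 to 1.59 with a median of 0.52, and none passed by edgeR. The sign turned for P4ha1 in limma-voom, and for P4ha1, Ankrd37 or Pdk1 without library 1, 3, 5 or 8. Their intervals were wide: among the 10 HIF-1 genes the 95% interval of the fold lay within a 2-fold change for 5 and within a 1.5-fold change for 1. P4ha1, a subunit of the collagen prolyl hydroxylase, was the most even target, at 226, 204, 171 and 211 CPM in Batf2-/- libraries 5 to 8, against 180, 220.1, 196 and 203 CPM in WT libraries 1 to 4. Its log2 fold change was 0.02 (95% interval -0.25 to 0.30).

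Bnip3, a mitochondrial receptor for mitophagy, stood at 47.2, 46.9, 31.3 and 101 CPM in Batf2-/- libraries 5 to 8, against 20.9, 38.5, 29.4 and 68.8 CPM in WT libraries 1 to 4. The high values were those of libraries 8 and 4, which lay together at one end of the first principal component, and the genotypes overlapped (log2 fold change 0.52, SE 0.42). The log2 fold change was 0.09 without library 8 and 0.96 without library 4. Pdk1, the kinase that restrains pyruvate dehydrogenase and so diverts pyruvate to lactate, stood at 18.9, 15.0, 7.55 and 19.9 CPM in Batf2-/-, against 7.96, 18.4, 9.88 and 17.8 CPM in WT. It was low in 1 Batf2-/- library (7) and 2 WT libraries (1 and 3). Ndrg1, a stress-responsive gene induced by hypoxia, stood at 25.9, 12.6, 14.1 and 7.08 CPM in Batf2-/-, against 15.9, 6.14, 6.46 and 5.26 CPM in WT. Libraries 5 and 1 were the highest of their genotypes, and 3 of 4 Batf2-/- libraries lay within the WT range (log2 fold change 0.82, SE 0.44). Without library 1 the log2 fold change was 1.32.

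Vegfa, the angiogenic growth factor, was barely expressed, with 160 counts in all 8 libraries. It stood at 0.623, 0.469, 0.925 and 0.685 CPM in Batf2-/- libraries 5 to 8, against 0.411, 0.372, 0.416 and 0.464 CPM in WT libraries 1 to 4. The lowest Batf2-/- library lay just above the highest WT library (log2 fold change 0.70, SE 0.26; edgeR adjusted p = 0.409). Ankrd37, a small ankyrin-repeat gene strongly induced by hypoxia, averaged 2.16 ± 0.750 CPM in Batf2-/- and 2.02 ± 0.899 CPM in WT (SD, n = 4 each). It shares 57 bases of exon with Ufsp2 on the opposite strand, which had 7008 counts against 594 for Ankrd37, and the strand setting of the count is not given in the sources used here.

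Of the oxygen sensors, Egln1 (PHD2), the main hydroxylase of HIF-1 alpha, stood at 87.4, 69.2, 38.1 and 56.0 CPM in Batf2-/- libraries 5 to 8, against 48.2, 78.1, 45.4 and 50.2 CPM in WT libraries 1 to 4. The genotypes overlapped throughout (log2 fold change 0.18, SE 0.26). Egln3 (PHD3), the sensor most strongly induced by HIF-1, stood at 3.69, 1.02, 0.250 and 2.12 CPM in Batf2-/-, against 0.231, 0.824, 0.499 and 0.743 CPM in WT. Its highest Batf2-/- library was 14.7-fold above its lowest, and its log2 fold change of 1.63 (SE 0.69) did not pass (edgeR adjusted p = 0.545). In limma-voom with library quality weights the log2 fold change was 0.45, and without library 5 in edgeR it was 0.95.

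Adm, which encodes the vasodilator peptide adrenomedullin, showed a like pattern at 2.44, 0.414, 0.250 and 0.815 CPM in Batf2-/- libraries 5 to 8, against 0.282, 0.399, 0.111 and 0.526 CPM in WT libraries 1 to 4. Library 5 was the highest for both genes and library 7 the lowest of Batf2-/-. The log2 fold change of Adm was 1.59 (SE 0.72; edgeR adjusted p = 0.598), and 0.55 without library 5. Library 5 also had the highest summed level of 8 T and NK cell markers, at 4.16 CPM, against 0.552, 1.48 and 2.90 CPM in Batf2-/- libraries 6, 7 and 8 and 0.464 to 0.975 CPM in WT, with Ncr1 at 0 in all 8 libraries. Its summed markers of endothelium and stroma, 4.16 CPM, were also the highest, but Cdh5 alone gave 3.24 CPM of this, and Cldn5 was at 0 throughout. Cdh5 was at 0.522 to 3.24 CPM in Batf2-/- and 0.124 to 0.462 CPM in WT, without overlap (edgeR adjusted p = 0.112). Pdgfra, the other tested marker of that list, also lay higher without overlap (0.294 to 0.575 CPM in Batf2-/-, 0.166 to 0.279 CPM in WT, edgeR adjusted p = 0.311). Summed neutrophil markers were 32.7 to 54.1 CPM in Batf2-/- and 20.4 to 33.2 CPM in WT, with Retnlg, Ly6g and Mpo at 0 in all 8 libraries. Most of that sum was S100a8 (21.1 to 46.8 CPM in Batf2-/-, 13.8 to 29.4 CPM in WT), while S100a9 had 2 counts in all 8 libraries together. The part of such cells in the levels of Egln3 and Adm was not tested.

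**Figure D4:**
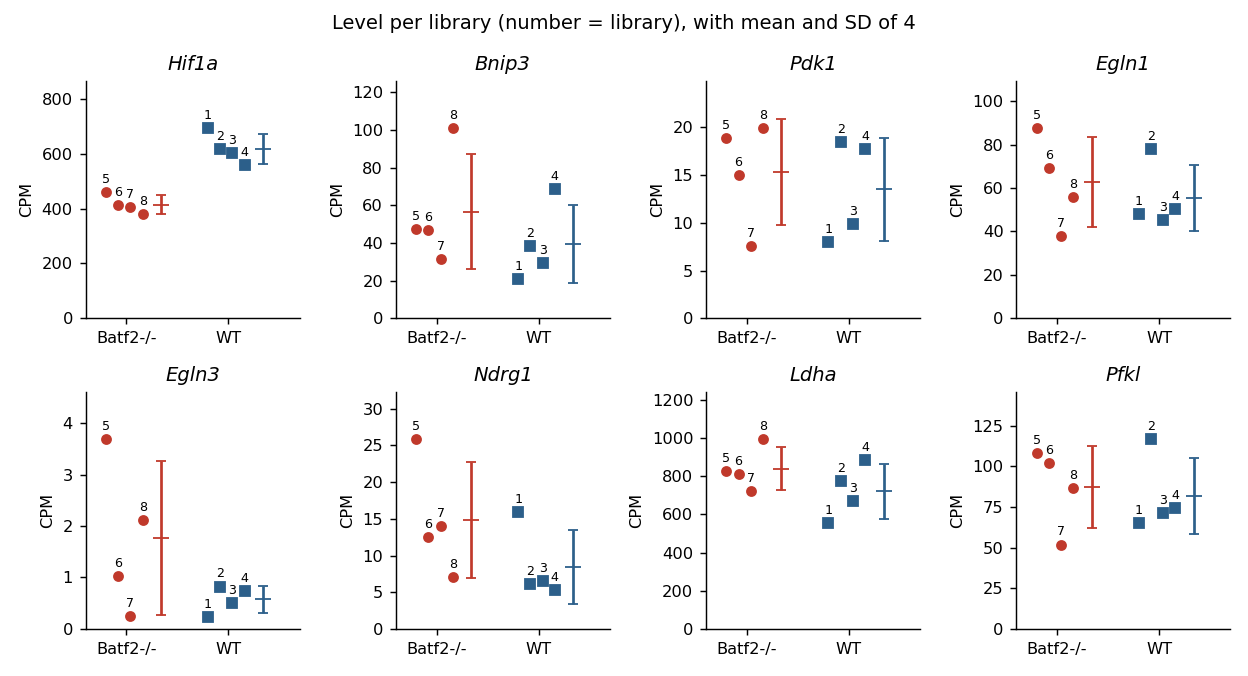
CPM (vertical axis, from 0) of 8 members in each library, Batf2-/- (red circles, left) and WT (blue squares, right), with library numbers and the mean and SD of 4 libraries. Hif1a is the only panel in which the genotypes do not overlap, and Bnip3 peaks in libraries 8 and 4.

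Variation between pools was at least as large as the difference between genotypes for 29 of the 30 genes in at least 1 genotype. Most genes behaved so, as the fold exceeded the ranges of both genotypes in only 3.45% of all tested genes. The ratio of the highest to the lowest library had a median of 1.45 in Batf2-/- and 1.47 in WT over the 20 glycolytic genes, and of 2.47 in Batf2-/- and 2.42 in WT over the 10 HIF-1 genes. It exceeded 2 for 2 glycolytic genes in Batf2-/- and 1 in WT, and for 7 HIF-1 genes in Batf2-/- and 6 in WT.

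Members did not vary between pools in a single way. Pgk1, Pgam1, Ldha and Bnip3 were highest in library 8 and lowest in library 7 of Batf2-/-, and highest in library 4 and lowest in library 1 of WT. Slc16a3, Pfkl, Eno1, Egln3 and P4ha1 were highest in library 5 and lowest in library 7 of Batf2-/-, and highest in library 2 and lowest in library 1 of WT. Slc2a6, Pfkp, Gapdh, Hif1a and Ndrg1 were highest in library 5 and lowest in library 8 of Batf2-/-, and highest in library 1 and lowest in library 4 of WT. So Hif1a was lowest in the libraries where Bnip3 and Ldha were highest, in both genotypes. Library 5 was the highest Batf2-/- library for 20 of 30 members and library 2 the highest WT library for 16. These sets were read off the data and carry no test.

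**Figure D5:**
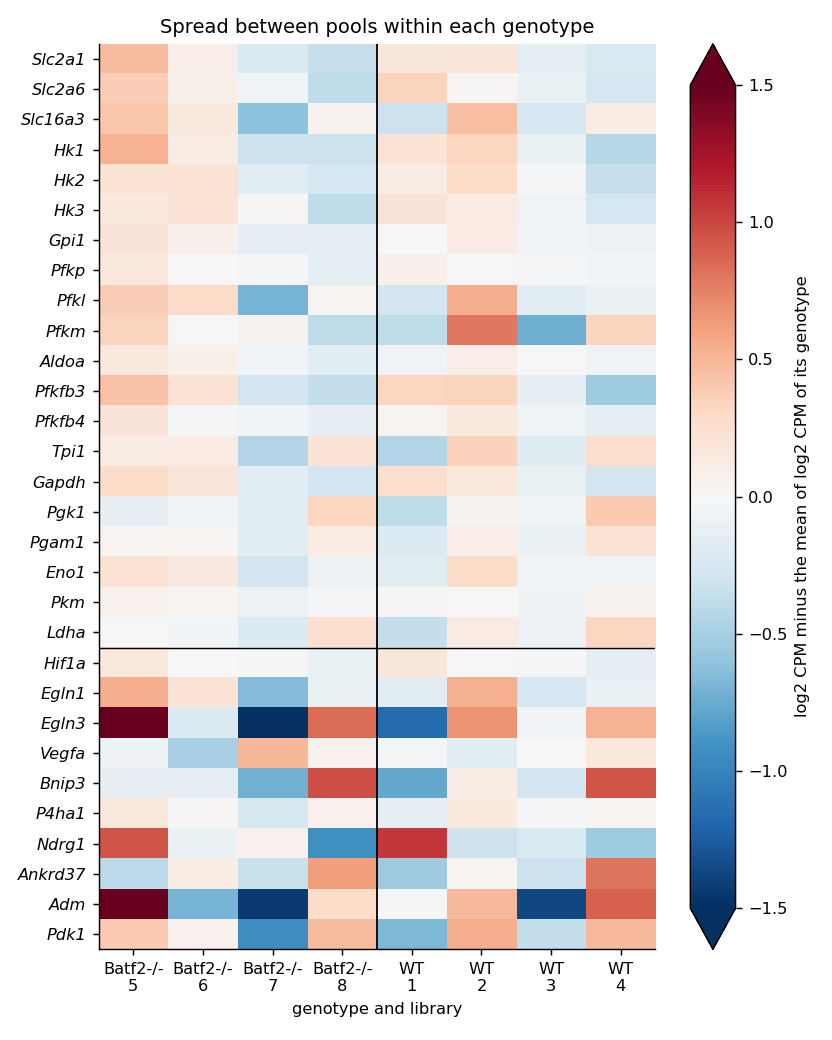
Deviation of log2 CPM from the mean of its own genotype (colour) for the 30 genes (rows, glycolytic above the line and HIF-1 below it) in each library (columns, Batf2-/- left and WT right). Bnip3 and Ankrd37 are raised in libraries 8 and 4, where Hif1a is at its lowest, and Egln3 and Adm show the widest spread, with library 5 beyond the colour range for both.

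Genes next to these in metabolism were read from further lists, and those named from them that did not pass were picked after their values were seen. Among 13 genes of pyruvate entry into mitochondria, 12 were tested, 1 fell and 11 did not pass, against 1.11% called among all tested genes. The 1 was Pdp1, the phosphatase that activates pyruvate dehydrogenase against the action of Pdk1, at 6.85, 6.82, 8.28 and 8.94 CPM in Batf2-/- libraries 5 to 8, against 12.6, 10.7, 13.0 and 13.7 CPM in WT libraries 1 to 4. All Batf2-/- libraries lay below all WT libraries, as in 3.29% of all tested genes (log2 fold change -0.69, SE 0.13; edgeR adjusted p = 0.0449). Leaving out 1 library ended this call in 7 of 8 cases, with adjusted p from 0.0352 (without library 8) to 0.236, and the 8 other alternatives kept it. Among 30 other glycolytic genes 17 were tested and 0 passed, with 2 at an unadjusted p under 0.05, Adpgk and Gpd2, both lower in Batf2-/-, against 8.5% of all tested genes. Gpd2, the mitochondrial glycerol-3-phosphate dehydrogenase, stood at 104, 84.6, 70.4 and 75.6 CPM in Batf2-/- and 137, 131, 116 and 102 CPM in WT (adjusted p = 0.191), and DESeq2 called it lower (adjusted p = 0.0281). Of 16 pentose phosphate and glycogen genes, 0 passed by edgeR, at the adjusted or the unadjusted level.

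In the rest of the HIF pathway, 0 of 12 tested genes passed by edgeR, and 2 had an unadjusted p under 0.05, against 8.5% of all tested genes. Cited2, which competes with HIF-1 alpha for its coactivators and is itself a HIF-1 target, stood at 27.6, 17.2, 19.4 and 22.0 CPM in Batf2-/- libraries 5 to 8, against 34.7, 31.3, 33.2 and 29.7 CPM in WT libraries 1 to 4. All Batf2-/- libraries lay below all WT libraries, against 3.29% of all tested genes (edgeR adjusted p = 0.144, DESeq2 adjusted p = 0.0163). Epas1, the alternative alpha subunit HIF-2 alpha, averaged 4.00 ± 0.808 CPM in Batf2-/- and 2.79 ± 0.749 CPM in WT (SD, n = 4 each; edgeR adjusted p = 0.522). Of 37 other tested HIF-1 targets 0 passed by edgeR, 5 were higher and 1 lower in Batf2-/- at an unadjusted p under 0.05, against 8.5% of all tested genes (605 higher and 337 lower), and the median log2 fold change was 0.14. Lox, the collagen cross-linking enzyme lysyl oxidase, had the same adjusted p as Hif1a, 0.0503, and the opposite direction. It stood at 13.7, 8.11, 7.65 and 4.01 CPM in Batf2-/-, against 3.21, 2.82, 2.22 and 1.83 CPM in WT, above all WT libraries as in 3.03% of all tested genes, and its adjusted p was 0.00921 (without library 8) to 0.202 when single libraries were left out. Of the 8 other alternatives 7 called it, DESeq2 with an adjusted p of 4.82e-05, and the stricter filter did not.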

How the data were processed

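The deposited table holds raw counts per gene for 8 libraries, made by the authors and not normalized, per the file headers. The genome build was GRCm38, per the submitters' processing notes. Neither the aligner nor the strand setting nor the annotation release is given in the sources used here. Libraries were prepared with a stranded kit that selects polyadenylated RNA, per the labels' protocols.

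Genes were kept by edgeR's filterByExpr, which left 11083 of 48709, all 30 members among them. Counts were scaled with TMM (trimmed mean of M values) factors in edgeR 4.0.16 (R 4.3.3), and a quasi-likelihood test compared 4 Batf2-/- with 4 WT libraries, with p-values adjusted by Benjamini-Hochberg over all tested genes and a threshold of 0.05. The fit had no block, because the columns carry no replicate number. SEs were taken as the log2 fold change over the square root of the F statistic, and 95% intervals from a t distribution with the fit's degrees of freedom. CPM values (counts scaled to a common library size) use TMM-scaled library sizes, and levels per length divide CPM by kilobases of merged exons in GENCODE M21, where 48349 identifiers matched. Each library is a pool of separate mice, so p-values measure the spread between pools.

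Alternatives were DESeq2 1.42.0, limma-voom (limma 3.58.1), other scalings and filters, leaving out libraries, and a block on table position. All members are described, with values per library for those past the threshold in any fit, those whose genotypes did not overlap and the highest per role, and other pathway genes are given as counts with those that passed. The scripts were tested on simulated counts. The members and lists were chosen with earlier results of these data known. Shares within the Pfkfb and Slc2a families, ratios over all gene pairs, marker sums without Chil3 and repeats of described values without single libraries were added after values were seen.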

Additional observations from a re-analysis of the deposited data

Results flagged for a closer look

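Within each genotype, each member's highest or lowest library was compared with the other 3 by Dixon's ratio, the gap to the nearest library over the whole range. Of 60 groups tested, 2 exceeded the 95% critical value, where chance flags about 1 in 20. Egln1 in WT had a ratio of 0.854, because library 2 (78.1 CPM) lay above the other 3 (45.4 to 50.2 CPM). Ndrg1 in WT had a ratio of 0.887, because library 1 (15.9 CPM) lay above the other 3 (5.26 to 6.46 CPM).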

How the results depend on the processing

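The count of genes past the threshold was 123 in edgeR with TMM, 343 with DESeq2, 370 with limma-voom, 206 without libraries 4 and 8, and 43 to 142 when single libraries were left out. The count of members was 0 in edgeR with TMM, and 1 (Hif1a, lower in Batf2-/-) with DESeq2 size factors in edgeR, with DESeq2, with limma-voom and without libraries 4 and 8. It was 0 to 1 when single libraries were left out. The log2 fold change of Hif1a lay between -0.63 and -0.52 over 16 alternatives, of which 6 put its adjusted p under 0.05.

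The labels number replicates but the count columns do not, so a replicate block could only be set by table position, which the labels do not give as a pairing. Of the 8 libraries, 7 correlated best with the library at the same position in the other genotype, a hint from the data and not from the design. With that replicate block, 1390 genes and 8 members passed, with Hk2, Pfkfb4 and Ndrg1 higher and Slc2a6, Hk3, Pfkp, Pfkfb3 and Hif1a lower in Batf2-/-.

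Of 480 repeats of single members' values, 460 stayed uncalled and within the SE of edgeR with TMM. Another 13 passed the threshold, 7 stayed uncalled but moved by more than that SE, and 0 called values changed sign. The sign changed in 22 uncalled repeats, which can fall among the 460, because that count did not look at the sign. Summed levels and isozyme shares moved by less than the spread between libraries. The causes were not tested. The lowest counts among the members were those of Pfkm, Vegfa, Adm and Egln3, with 142 to 342 in all 8 libraries together.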
